A study of Mus musculus with 2 samples.

Results

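The 26 ERRα windows described here lie in a single stretch of mouse chromosome 7 and are named after Snord115, a small nucleolar RNA whose genes are repeated in tandem. They were chosen by position, as all windows of the deposited peak list between 66764076 and 66842850 on chromosome 7 of the mm9 build, and make up 26 of the 3225 windows of the list (0.806%) and 26 of the 162 on chromosome 7 (16.0%). Because the stretch was picked for its dense and regular windows, their number and spacing are given as a description, with no test.

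The list comes from chromatin immunoprecipitation and sequencing (ChIP-seq) of C2C12 myotubes, the multinucleated cells that this mouse myoblast line forms when serum is lowered. The cells were kept in medium with 2% horse serum for 72 h, and an adenovirus carrying flag-tagged PGC-1α, a coactivator that partners with ERRα, was then added for 48 h. The immunoprecipitate, made with a rabbit monoclonal antibody against the orphan nuclear receptor ERRα, had 1 library, and the whole-cell extract that served as background had 1 library. Both came from infected cells, so the list shows no effect of PGC-1α, and with 1 library each there is no replicate check.

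Box C/D small nucleolar RNAs are short RNAs that guide the methylation of ribose in other RNAs, through a stretch of bases that pairs with the target. Snord115 is an unusual member of this class: it is known as a brain-expressed RNA, its guide stretch matches the messenger RNA of the serotonin receptor gene Htr2c and not a ribosomal RNA, and its copies are cut from introns of a long host transcript, Snhg14, which is made from the paternal chromosome only. The host transcript starts near Snrpn, runs through the Snord116 and Snord115 copies and ends antisense to Ube3a, the ubiquitin ligase gene whose maternal copy is active in neurons. Loss of the paternal copy of the matching human region causes Prader-Willi syndrome. Whether Snord115 was transcribed in these myotubes was not measured.

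The name of the locus could be checked against the order of genes only, since the list names no gene. In the RefSeq gene table of GRCm38.p6, a later build used here for names and order, the chromosome 7 genes of the region include, in this order, Atp10a, Ube3a, Ipw, Snord64 and Snrpn, with Ndn, Magel2, Mkrn3 and Peg12 farther on. Between Ube3a and Ipw, and apart from the host gene Snhg14, the table lists 136 genes in unbroken succession, of which 134 are annotated as small nucleolar RNAs, 1 as a small nuclear RNA and 1 as a pseudogene. This is the place where the Snord115 copies are known to lie. None of the 136 carries the symbol Snord115 or has it as a synonym: 135 have provisional Gm symbols and 1 a LOC symbol. A further group of 70 small nucleolar RNA genes lies between Ipw and Snord64, and 17 of these have symbols that begin with Snord116. The order therefore holds an array of the kind the name describes, on the Ube3a side of Snrpn, but it does not place the 26 windows in it, because positions of the later build were not carried over to mm9. Whether the windows lie on Snord115 copies, on Snord116 copies or beside them was not tested by position or by sequence.

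Each of the 26 windows was 200 bp wide. Together they covered 5.2 kb, or 6.6%, of the 78.8 kb from the first start to the last end. That is 330.1 windows per Mb, against 0.93 per Mb over the rest of chromosome 7. At most 5 windows of the array fitted into any 10 kb, so the density comes from windows that follow one another over a long distance and not from a few that crowd together.

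The windows of the array recurred at a constant step, and where a window was missing the next one resumed on the same step. The median distance between neighbouring starts was 1875 bp. Of the 25 distances, 15 were of a single step, and these took only the values 1850 bp (4 distances) and 1875 bp (11 distances), which are adjacent values on the 25 bp grid of the list. The other 10 distances were longer. There were 6 of 2 steps, between 3725 and 3775 bp, 2 of 3 steps, both 5600 bp, 1 of 4 steps at 7500 bp and 1 of 5 steps at 9375 bp. No distance fell between these classes.

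**Figure D1:**
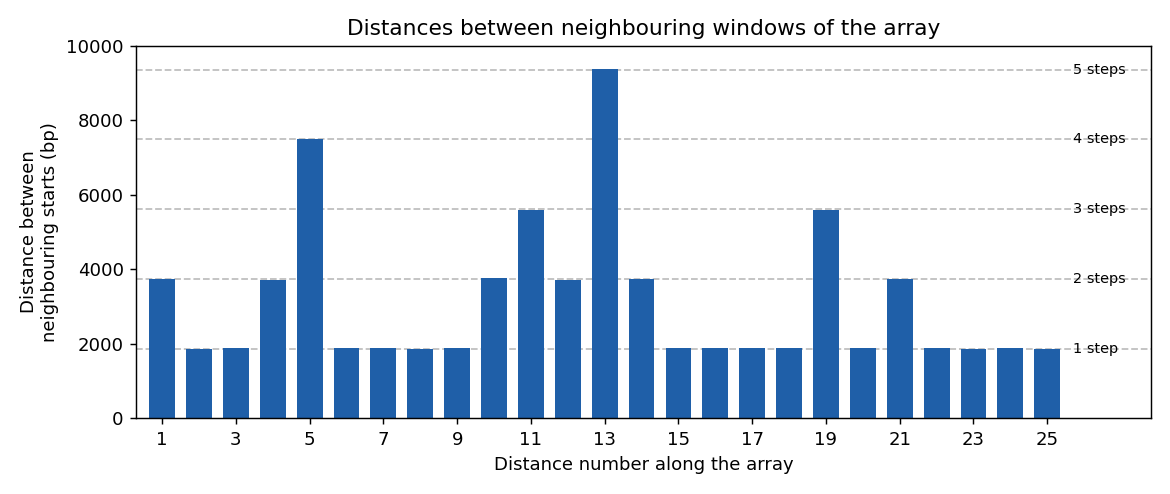
Distances in bp between neighbouring window starts, in their order along the array (25 bars), with dashed lines at 1 to 5 fitted steps. The bars stand at the lines: 15 at 1 step, 6 at 2, 2 at 3, 1 at 4 and 1 at 5.

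All 25 distances lay within 5% of the step from a whole multiple of it, and all 25 also lay within 25 bp of one. Elsewhere in the list, neighbouring distances of the same length (1 to 5 steps) numbered 192, and 34 of them, or 17.7%, lay within 5% of the step from a whole multiple. The values 1850 and 1875 bp occurred 15 times among the 25 distances of the array and 6 times among the 3174 neighbouring distances that lay more than 100 kb from it. The spacing is what drew attention to these windows, so nothing is read from this contrast.

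The length of a step differed by less than the 25 bp grid between the classes of distance. Single-step distances averaged 1868.3 bp, distances of 2 steps 1872.9 bp per step and distances of 3 steps 1866.7 bp per step, while the 4-step and the 5-step distance each gave 1875 bp per step. A straight line through the 26 starts against their step number gave 1871.79 bp per step (standard error 0.18, over windows that are not replicates). The first 13 windows alone gave 1870.92 bp (standard error 0.54) and the last 13 alone 1870.84 bp (standard error 0.58). They are parts of a stretch picked for its regular step, so their closeness is no independent check of it. Both values lay below that for all 26 windows. The median of 1875 bp is thus the grid value nearest to a slightly shorter step. Counted in steps of exactly 1875 bp, the last window fell 175 bp short after 42 steps.

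Around the fitted line the starts scattered with a standard deviation of 12.7 bp, which is below the 25 bp grid. Deviations ran from -26.9 bp at the last window to 19.6 bp at the second, and 25 of the 26 windows stood within 25 bp of the line. Within the stretch from 66816476 to 66824175, where every distance was 1875 bp, the deviation grew from 3.2 to 16.0 bp, as a grid value longer than the fitted step gives. Between neighbouring windows the deviation changed by more than the 25 bp grid once, by 31.4 bp over the 3775 bp from the window at 66790251 (-16.8 bp) to the window at 66794026 (14.6 bp). After the longest interval, the 9375 bp from the window at 66803351 to the window at 66812726, the deviation was -3.3 bp.

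**Figure D2:**
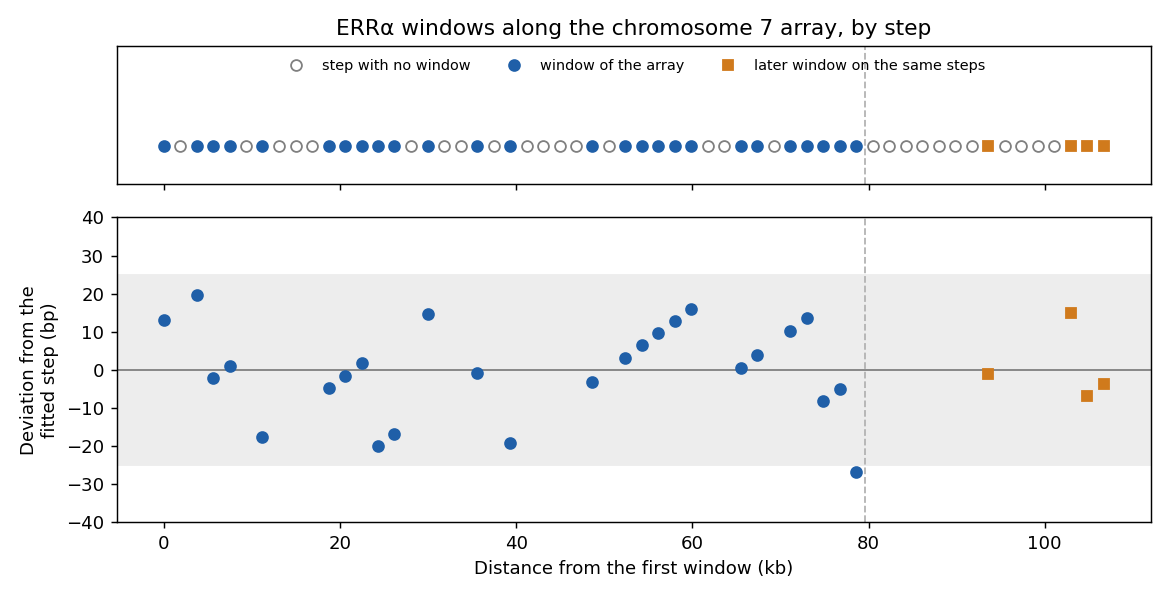
The upper panel marks each step along the array by its distance from the first window in kb, with filled circles for the 26 windows, open circles for steps with no window and squares for 4 later windows on the same steps; the dashed line ends the array. The lower panel gives the deviation of each start from the fitted step in bp, which ran from -26.9 to 19.6 bp in the array, with 25 bp either way shaded.

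The array spanned 43 positions at this step, of which 26 (60.5%) held a window and 17 did not. The occupied positions formed 11 blocks without a missing step, and the 3 longest of these held 5 windows each, or 15 of the 26. They lay at 66782776 to 66790450, at 66816476 to 66824175 and at 66835201 to 66842850, the last of which closed the array. A block of 3 windows lay at 66767826 to 66771750 and a block of 2 at 66829576 to 66831650. The other 6 windows stood alone, starting at 66764076, 66775276, 66794026, 66799626, 66803351 and 66812726.

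Missing steps fell into 10 stretches. A single step was missing in 6 of them, 2 steps in 2, 3 steps in 1 and 4 steps in 1. The stretch of 3 lay between the lone window at 66775276 and the block that starts at 66782776. The stretch of 4 lay between the lone windows at 66803351 and 66812726, near the middle of the array. When its positions were divided into 3 stretches of nearly equal length, the middle was the sparsest. Windows stood at 10 of the first 15, 5 of the next 14 and 11 of the last 14. Cut once in the middle, the array had windows at 13 of the first 22 positions and 13 of the last 21. The end positions hold a window by definition, and the differences were not tested. A missing step is a position that was not listed and cannot be told from a window just below the threshold, because the list has no score and how deeply either library was read is unknown. The treatment of reads that match several places is not given either, so whether it left steps without a window was not tested.

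The same steps went on beyond the end of the array, in windows outside the chosen range that the fit did not use. The members were chosen with earlier results of these data known, so these windows are no independent check. The 5 other windows of chromosome 7 within 100 kb were 1 before the array and 4 after it. The 4 later windows started at 66857651, 66867026, 66868876 and 66870751, which were 8, 13, 14 and 15 steps from the last window of the array. Extended from the 26 windows, the line passed 1.2, 14.9, 6.9 and 3.7 bp from their starts. All 4 therefore lay within 25 bp of a step, which is the spacing of the grid. Between the last window and the first of these, 7 steps held no window, and 4 more were missing before the final 3. The distances between these 4 windows were 9375, 1850 and 1875 bp, all of them values found within the array.

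The window before the array did not keep the step. It started at 66738101, 25975 bp before the first window, and missed the nearest extended step by 243.2 bp. Of the 136 chromosome 7 windows outside the array, 8 (5.88%) lay within 25 bp of an extended step, and these included the 4 later windows. Of the 131 windows more than 100 kb away, 4 (3.05%) did. Over such distances the error of the step adds up, so these windows show only how often a start meets the steps when it is far from the array.

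With the 4 later windows the series ran over 106.9 kb, with 30 windows at 58 positions (51.7%) and a fitted step of 1871.80 bp (standard error 0.13, residual standard deviation 12.2 bp). Its added stretch was the sparser, with 4 of 15 positions occupied, and 28 steps were missing in all. The array ends where joining at 10 kb breaks off, so the added stretch had to open with missing steps.

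Beyond these windows the chromosome was empty over a long distance on both sides. Including the 5 outside windows, 31 windows lay within 132.8 kb, and 30 of the 31 (96.8%) shared the steps. The next window before them lay 2.56 Mb away, at 64176451 to 64176650, and the next after them 2.24 Mb away, at 69108951 to 69109150. The median distance between neighbouring starts over the rest of chromosome 7 was 491.1 kb. In this region the immunoprecipitate therefore gave 1 listed window off the steps of the array over 4.93 Mb. Empty stretches of this length were not particular to the sides of the array. Within 10 Mb, the other windows stood at -7761.45, -3394.45, -2587.625 and 2344.875 kb from its first window, so longer ones lay nearby. How common such distances are on chromosome 7 was not counted.

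**Figure D3:**
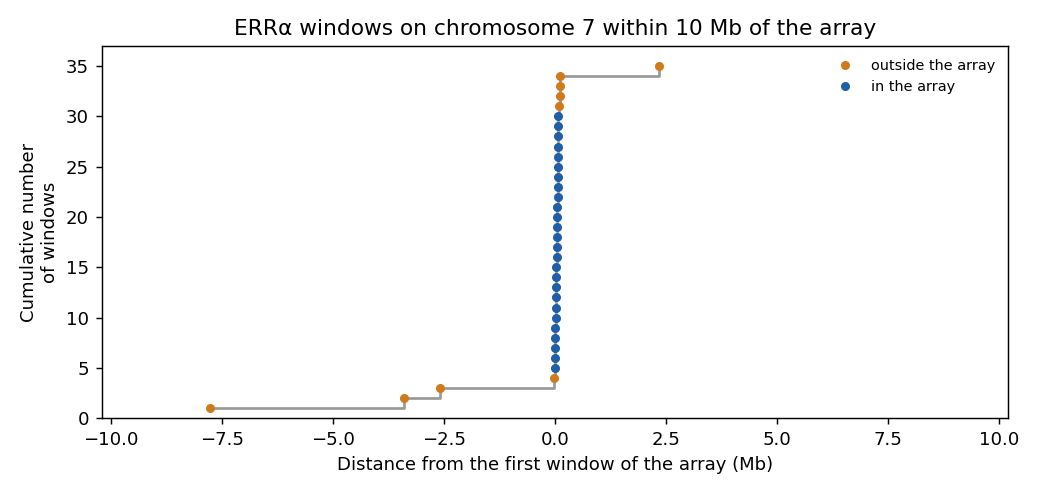
Cumulative number of ERRα windows on chromosome 7 against the distance in Mb from the first window of the array, within 10 Mb on either side (35 windows). The 26 windows of the array and the 5 beside it rise almost vertically, with no window for 2.56 Mb before and 2.24 Mb after.

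The array was set beside the other long runs of the list, which are 7 further groups of more than 5 windows, each no more than 10 kb from the next. The run of 12 windows on chromosome 4, at 88419676 to 88452075, was the other one in which every distance lay within 5% of a whole multiple of its own median. Its 11 distances ran from 2825 to 3000 bp, all of them single steps, so none of its 12 positions was missing, against 17 of 43 on chromosome 7. Its starts scattered around their line with a standard deviation of 36.4 bp, or 1.25% of its step of 2923.6 bp, where the chromosome 7 array had 12.7 bp, or 0.68%. These spreads were not compared by a test, as both runs were chosen on the same positions.

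The run of 74 windows on chromosome 8, at 126062651 to 126147675, was longer and denser and mixed several distances. It held 8.7 windows per 10 kb against 3.3 in the chromosome 7 array. Its neighbouring distances had a median of 1150 bp and lay between 350 and 1950 bp, and 12 of 73 (16.4%) came within 5% of that median of a whole multiple. That share rests on the median as the step. The run had recurring distances of its own, the commonest of which were 575 bp (11 distances), 1700 bp (10) and 1125 bp (6), and 63.5% of its windows had another window within 25 bp of 1700 bp away. In the chromosome 7 array the shortest distance was 1850 bp, so each step held at most 1 window, while on chromosome 8 distances shorter than the median step by more than 5% numbered 26. In the other 5 runs, with 6 to 17 windows, between 0% and 40% of distances lay within 5% of a whole multiple of the run's own median.

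**Figure D4:**
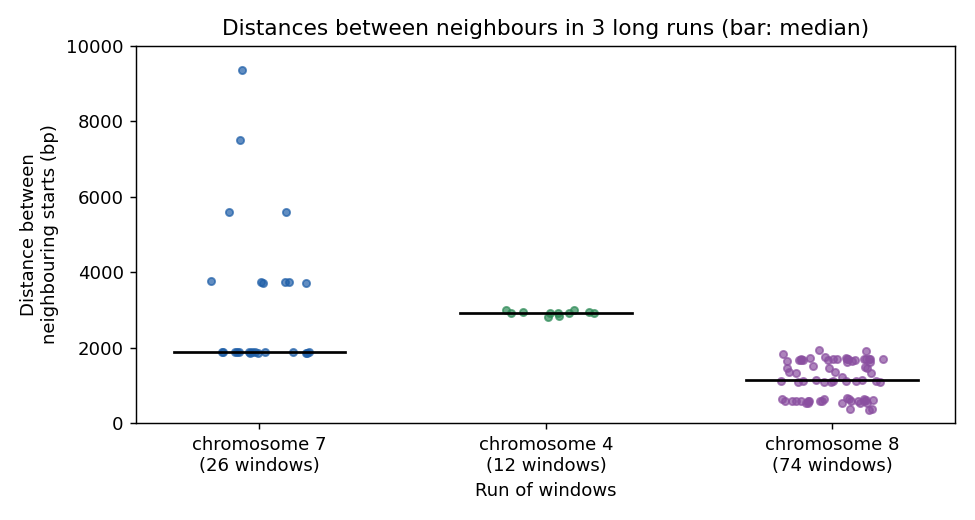
Distances in bp between neighbouring window starts in 3 long runs, with each distance as a point spread sideways for visibility and the median as a bar. Distances on chromosome 7 stand in separate levels from 1850 to 9375 bp, those on chromosome 4 form a single level near 2925 bp, and those on chromosome 8 lie between 350 and 1950 bp, most often at 575, 1125 and 1700 bp.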

How the data were processed

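Bowtie 0.12.7 and mm9 are named in the submitters' processing notes. Not given in the sources used here are the peak caller, its threshold and the treatment of reads that match several places, so the number of windows in a repeated locus need not equal the number of bound copies. The deposited list has 3 columns (chromosome, start, end) and no score or count. Depth is unknown. Other samples' value columns numbered 0.

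Positions are counted from 1. Distances are between neighbouring starts; each was divided by their median and rounded to the nearest whole number to give step numbers, and starts were fitted on these by least squares. The step numbering and the fit were tried on simulated arrays with other steps. There the step was the median of the shortest distances only, so the median of all distances was not tested. The members and lists were chosen with earlier results of these data known; by rule, all 26 windows and the genes of the imprinted region were described. Of 16 such genes, 13 were listed by symbol; 1 further gene is not reported here. The promoter table held 0 of the 136 genes between Ube3a and Ipw, so no sequence is printed and no motif was searched. Groups came from sample titles. Python 3.11.15, numpy 2.4.6, pandas 2.3.3, scipy 1.17.1 and matplotlib 3.10.9 were used.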

Additional observations from a re-analysis of the deposited data

How the results depend on the processing

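The step was 1875 bp by median, and single-step distances alone, or the array without its first and last window, gave the same value. Least-squares fits lay between 1870.84 and 1871.80 bp, within the 25 bp grid of the median. The share of distances near a whole multiple was 100% with each tolerance and step tried. No interval is given for it, because the stretch was picked for its regular spacing and the step came from the same distances. Of the positions, 60.5% were occupied, or 60% without the end windows and 51.7% with the later windows on the same steps. No interval is given for this share either. The stretch was picked for its dense windows, its end positions hold a window by definition, and positions are not replicates. The 26 windows are the largest run on chromosome 7 when windows are joined at 10 kb, so that setting returns them by definition and is no check. At 5 kb the array broke into 5 pieces, the largest with 7 windows. At 15 and 30 kb, chosen after seeing the data like the fits on 13 windows and those with later windows, it held 30 and 31. At 3750 bp, which is 2 steps, 92.3% of the windows had another window within 25 bp of that distance. No other distance tried gave a larger share, but the distances tried did not reach 3 steps. The nearest outside window started 15000 bp away, and 5 lay within 1 Mb. Motifs with mismatches were not run. No paired analysis was possible because there was 1 library per group.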
